A study of Mus musculus with 9 samples.

Results

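The voltage-gated sodium and calcium channel genes were followed in neuronal nuclei of the mouse cortex. They were taken as all genes whose symbol begins with Cacna, Cacnb or Cacng, or with Scn and a digit, with at least 50 counts summed over the 9 libraries. This gave 38 genes, from 40 symbols, of 55401 genes in the annotation and of 17012 genes with at least 50 counts. Cacna1f, a calcium channel gene of the retina, had 44 counts and the skeletal muscle sodium channel gene Scn4a had 1 count, so both fell outside, while Cacng1 with 57 counts and Scn11a with 74 were the members nearest the limit. RNA was sequenced from cortical nuclei carrying NeuN, the product of Rbfox3 and a marker of neurons, of mice aged 7 to 9 months. The 3 groups held 3 libraries each: P301S tau transgenic mice given the Cdk5i peptide, P301S tau transgenic mice given a scrambled peptide, and wild-type mice without treatment. Both peptides were injected into the abdomen every other day at 20 mg per kg body weight. Cdk5 is a neuronal kinase that phosphorylates tau and several ion channels, and Cdk5i names a peptide that inhibits it. The labels name neither the promoter of the tau transgene nor the line, and no label ties a library to an animal of its own, so the p-values below reflect the spread of the libraries, part of which may be technical. Wild-type mice received no injection, so genotype and injection cannot be told apart in the comparisons with wild type.

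Voltage-gated sodium channels carry the rising phase of the action potential. Each consists of a large pore-forming α subunit, encoded by genes such as Scn1a, Scn2a, Scn3a and Scn8a in brain, and smaller β subunits, such as those encoded by Scn2b and Scn4b, that place the channel in the membrane and alter its gating. Voltage-gated calcium channels turn depolarisation into calcium entry, which drives transmitter release at terminals, dendritic signalling and gene expression. Their pore is an α1 subunit of the Cav1 (L-type), Cav2 (presynaptic and R-type) or Cav3 (low-voltage T-type) class, and Cav1 and Cav2 channels are joined by a cytoplasmic β subunit (Cacnb genes) and an extracellular α2δ subunit (Cacna2d genes). The Cacng genes are named after a subunit of the muscle calcium channel, but most of those read in brain encode auxiliary subunits of AMPA-type glutamate receptors.

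By subfamily the 38 genes were 9 sodium channel α genes, 4 sodium channel β genes, 3 genes each of Cav1, Cav2 and Cav3, 4 genes each of α2δ and calcium channel β, and 8 Cacng genes. Several lie in runs of neighbours (GRCm38). Scn3a (chr2:65457118-65567627, minus strand), Scn2a (chr2:65620771-65767447, plus strand), Scn1a (chr2:66270778-66440840, minus strand), Scn9a (chr2:66480080-66634962, minus strand) and Scn7a (chr2:66673425-66784914, minus strand) follow each other on chromosome 2, and Scn10a and Scn11a lie on chromosome 9. Cacng1, Cacng4 and Cacng5 lie together on chromosome 11, and Cacng7, Cacng8 and Cacng6 on chromosome 7. Counts cover each gene from start to end, introns included, so they measure RNA made over the whole gene body in the nucleus. On the same strand, 29 of the 38 genes overlapped no other gene, and in the other 9 at most 3.36% of the span was shared.

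Promoter sequences are shown for 3 sodium channel genes of high level and for Cacnb1, the calcium channel β gene described further on, because they differ in CG content although the mean levels of the 4 genes lay between 1.96 and 3.45 CPM per kb. The 250 bases before the most upstream RefSeq start (GRCm38.p6) are given 5′ to 3′ on the strand of the gene, with CG dinucleotides in capitals. The Scn2a sequence, chr2:65620519-65620768 on the plus strand, held 2 CG, and the Scn1a sequence, chr2:66440838-66441087 on the minus strand, held 4. The Scn8a sequence, chr15:100870395-100870644 on the plus strand, held 30 CG, and the Cacnb1 sequence, chr11:98022628-98022877 on the minus strand, held 26.
Scn2a: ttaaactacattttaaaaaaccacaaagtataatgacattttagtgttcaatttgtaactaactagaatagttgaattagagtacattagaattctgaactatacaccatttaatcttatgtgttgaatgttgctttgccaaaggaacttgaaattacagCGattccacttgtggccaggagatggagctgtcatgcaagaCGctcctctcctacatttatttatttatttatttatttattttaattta
Scn1a: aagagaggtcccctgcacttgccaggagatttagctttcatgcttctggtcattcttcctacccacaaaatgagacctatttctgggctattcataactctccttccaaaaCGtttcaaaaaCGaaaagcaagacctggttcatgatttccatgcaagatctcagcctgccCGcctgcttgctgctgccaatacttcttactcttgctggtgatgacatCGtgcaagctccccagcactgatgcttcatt
Scn8a: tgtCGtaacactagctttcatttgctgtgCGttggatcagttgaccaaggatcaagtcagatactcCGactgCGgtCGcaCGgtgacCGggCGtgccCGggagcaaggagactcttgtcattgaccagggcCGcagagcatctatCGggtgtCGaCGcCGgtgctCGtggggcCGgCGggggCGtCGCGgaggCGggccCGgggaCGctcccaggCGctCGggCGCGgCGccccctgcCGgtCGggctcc
Cacnb1: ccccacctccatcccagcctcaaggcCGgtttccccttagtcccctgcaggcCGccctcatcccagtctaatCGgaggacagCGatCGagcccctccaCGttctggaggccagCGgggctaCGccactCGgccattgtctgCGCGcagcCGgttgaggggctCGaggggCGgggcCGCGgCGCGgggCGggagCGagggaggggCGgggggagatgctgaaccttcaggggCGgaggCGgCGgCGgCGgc
In the RefSeq table, 28 of the 38 genes had windows of 300 bases around a start, 39 windows in all, and the other 10 genes had none. At least 20 CG were found in 15 of these 39 windows (38.5%), against 26.5% of all 32851 windows in the table. The share was 18.2% (2 of 11 windows) for sodium channel genes and 46.4% (13 of 28 windows) for calcium channel genes. Searched on both strands, the letters TATAAA were in 2 of the 39 windows (5.13%), against 13.6% of all windows. The letters GGACAG, the right part of the site bound by the neuronal gene repressor REST, were in 7 windows (17.9%), against 22.2%, and CAGCACC, the left part, was in 0 windows, against 7.14%. Windows of 1 gene can overlap, and a match is a description of the letters only.

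Libraries held 21584712 to 26715938 counts, of which the 38 genes together took 1.20 to 1.26% with Cdk5i, 1.17 to 1.20% with scrambled peptide and 1.15 to 1.19% in wild type. Levels are given as CPM, which scales counts to the TMM-adjusted total of each library, and between genes as CPM per kb of gene span. The 36 genes with enough counts to be tested had a median of 1.76 CPM per kb, against 0.548 CPM per kb over all 16046 genes tested, and 27 of the 36 lay above that median. The neuronal marker Rbfox3 was read at 1106 to 1558 CPM over the 9 libraries, while the microglial genes C1qa and C1qb reached at most 0.0793 and 0.153 CPM and the endothelial gene Cldn5 at most 0.142 CPM. Markers of striatal projection neurons, 8 of 8 of them detected, were also present. Their summed CPM was 2696 to 3616 in Cdk5i libraries, 1829 to 2688 in scrambled ones and 1942 to 3045 in wild-type ones. Inhibitory neuron markers summed to 2069 to 2296 CPM with Cdk5i, 1804 to 1968 CPM with scrambled peptide and 2005 to 2397 CPM in wild type, the scrambled libraries lying below both other groups. Most of this sum was Erbb4 (915 to 1268 CPM over the 9 libraries) and Adarb2 (670.3 to 944 CPM), and only these genes showed that order. The other inhibitory markers listed, among them Gad1 (73.6 to 138 CPM) and Gad2 (70.2 to 116 CPM), overlapped between the scrambled libraries and both other groups. Oligodendrocyte markers summed to 154 to 197 CPM with Cdk5i, 185 to 211 CPM with scrambled peptide and 157 to 164 CPM in wild type, the scrambled libraries lying above wild type. The part of these cell types in the differences between groups given below was not tested.

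**Figure D1:**
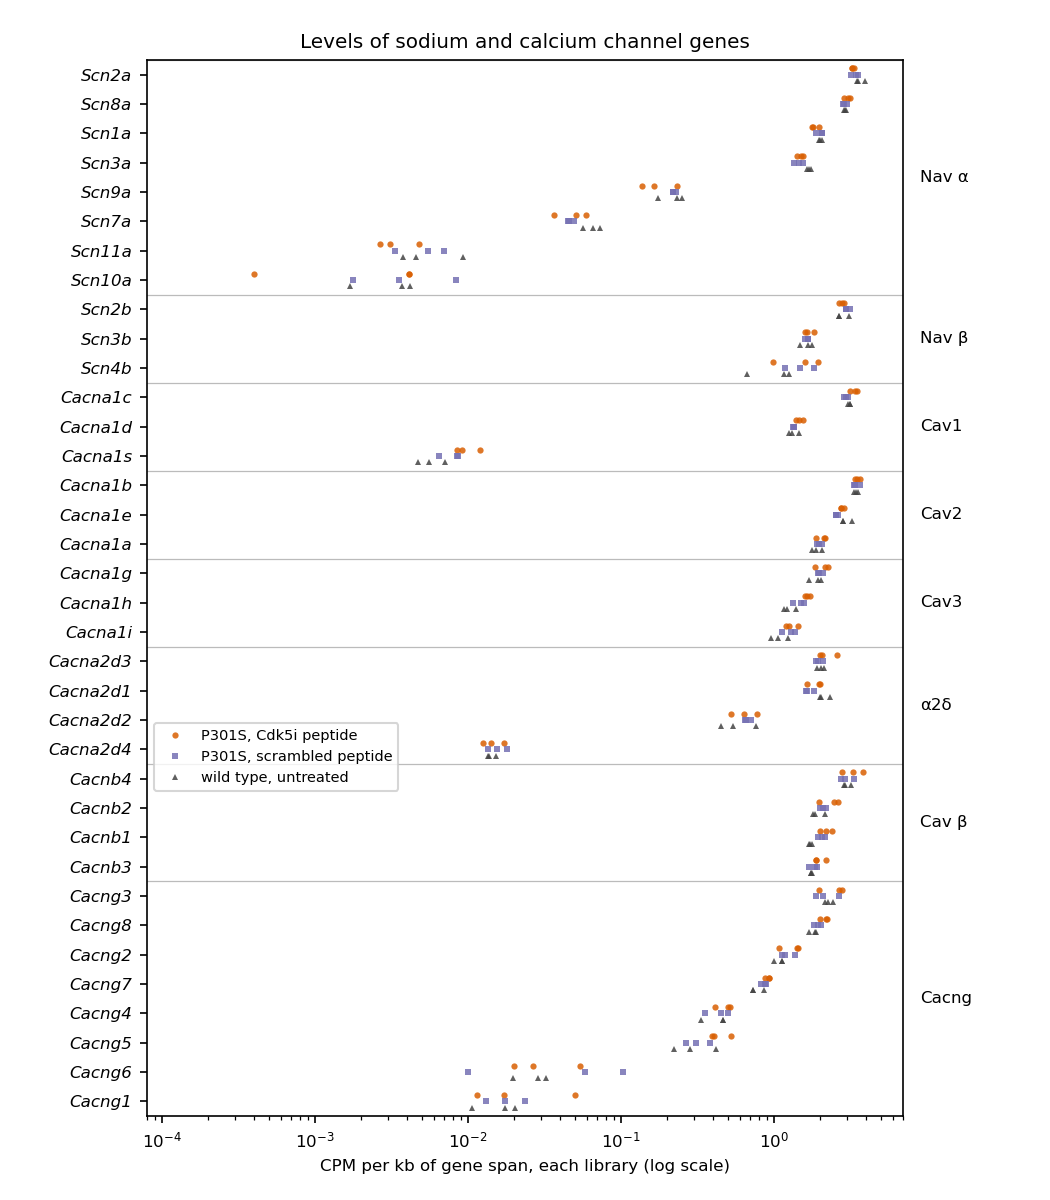
Level of channel genes in each of the 9 libraries, as CPM per kb of gene span on a log axis, grouped by subfamily and ordered by mean level within it. Points are libraries of P301S mice with Cdk5i peptide, P301S mice with scrambled peptide and untreated wild-type mice. Genes of the sodium channel α subfamily spread widest, with Scn2a at 3.22 to 3.96 and Scn10a at 0.000403 to 0.00835 CPM per kb.

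Among sodium channel α genes, 4 brain genes held nearly all of the level, and the genes known from sensory neurons were low. Scn2a, the main α subunit of excitatory axons early in life and of their initial segments, lay at 3.22 to 3.96 CPM per kb over the 9 libraries. Scn8a, the α subunit of nodes of Ranvier and of the distal initial segment, lay at 2.84 to 3.17, Scn1a, which serves parvalbumin interneurons above all, at 1.79 to 2.07, and Scn3a, the α subunit best known from the embryonic brain, at 1.36 to 1.74 CPM per kb. The ranges of these 4 neighbours in the order did not overlap. As a share of the summed α level per kb, Scn2a took 32.3% ± 0.405 with Cdk5i, 32.9% ± 1.26 with scrambled peptide and 33.7% ± 1.79 in wild type (SD, n = 3 each). Scn8a took 29.8% ± 1.27 with Cdk5i, 28.1% ± 0.253 with scrambled peptide and 27.0% ± 0.847 in wild type (SD, n = 3 each).

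Scn9a, of peripheral sensory and sympathetic neurons, lay at 0.138 to 0.250 CPM per kb. Scn7a, an atypical member that senses extracellular sodium, lay at 0.0364 to 0.0736 CPM per kb. The nociceptor genes Scn11a and Scn10a were lowest, with ranges of 0.00266 to 0.00926 and 0.000403 to 0.00835 CPM per kb that overlap. Scn10a rested on 1 to 24 counts per library.

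Sodium channel β genes differed less among themselves. Scn2b, whose product resembles cell adhesion molecules, lay at 2.67 to 3.13 CPM per kb and Scn3b at 1.48 to 1.82, without overlap. Scn2b measured 34.4, 32.8 and 35.6 CPM with Cdk5i, 36.8, 38.4 and 36.7 CPM with the scrambled peptide and 32.9, 33.0 and 38.0 CPM in wild type. The scrambled libraries were above those with Cdk5i, and wild type overlapped both.

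Scn4b, a β subunit linked to resurgent current and abundant in striatal projection neurons, was the most variable of the well-read members. Its level was 30.8, 15.7 and 25.2 CPM with Cdk5i, 18.7, 28.6 and 23.4 CPM with the scrambled peptide and 10.5, 19.8 and 18.3 CPM in wild type. The spread within each group was as wide as the distance between groups. Rgs9, a striatal marker, measured 251, 117 and 203 CPM with Cdk5i, 107, 181 and 169 CPM with the scrambled peptide and 69.0, 169 and 133 CPM in the wild-type libraries, and its highest and lowest libraries were the same as those of Scn4b. The part of striatal RNA in the Scn4b values was not tested. In bulk nuclei, fewer cells of a type and less RNA per cell cannot be told apart.

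The calcium channel α1 genes of 3 classes lay between 0.962 and 3.68 CPM per kb in all libraries, apart from the muscle gene Cacna1s. Cacna1b, the N-type presynaptic channel, had the highest mean of all 38 genes, with a range of 3.37 to 3.68 CPM per kb. It measured 539.8, 579.6 and 559.8 CPM with Cdk5i, 587, 543 and 536 CPM with the scrambled peptide and 564, 548 and 536 CPM in wild type. The groups overlapped and the 9 libraries lay close together. Below it in its class, Cacna1e (R-type) lay at 2.54 to 3.26 and Cacna1a (P/Q-type, the main channel of transmitter release) at 1.78 to 2.16 CPM per kb, without overlap between the 3 neighbours. Cacna1c, the main L-type channel of the brain, lay at 2.86 to 3.48, Cacna1d, the L-type channel that opens at lower voltage, at 1.25 to 1.56, and Cacna1s, of skeletal muscle, at 0.00474 to 0.0120 CPM per kb. Among T-type genes Cacna1g lay at 1.70 to 2.28, Cacna1h at 1.16 to 1.72 and Cacna1i at 0.962 to 1.45 CPM per kb, each range overlapping the next.

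The α2δ genes spread widely, and the calcium channel β genes lay close together. Of the α2δ genes, Cacna2d3 (1.88 to 2.58 CPM per kb) overlapped Cacna2d1 (1.62 to 2.34), which encodes the target of gabapentin. Cacna2d2 lay at 0.455 to 0.783 and Cacna2d4, known from the retina, at 0.0125 to 0.0181 CPM per kb. Of the calcium channel β genes, which carry α1 subunits to the membrane, Cacnb4 was highest (2.77 to 3.84 CPM per kb), and Cacnb2 (1.80 to 2.63), Cacnb1 (1.70 to 2.40) and Cacnb3 (1.70 to 2.21) overlapped each other.

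Among Cacng genes the AMPA receptor partners Cacng3 (1.88 to 2.78 CPM per kb) and Cacng8 (1.69 to 2.24) overlapped, followed by Cacng2, also called stargazin, at 1.00 to 1.45. Cacng7 lay at 0.729 to 0.929, and Cacng4 (0.335 to 0.520) overlapped Cacng5 (0.224 to 0.525). Cacng6 (0.0101 to 0.103 CPM per kb) and Cacng1 (0.0107 to 0.0503), the muscle gene after which the family is named, overlapped at the bottom. Cacng1 and Scn11a had too few counts for the tests below.

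Cdk5i was compared with scrambled peptide to ask what the peptide altered in P301S neurons, both groups being injected. No channel gene passed the test, which was edgeR's quasi-likelihood test adjusted by Benjamini-Hochberg over all genes with a threshold of 0.05. The count was 0 of 36 genes, beside 2 of 16046 genes tested (0.0125%), and DESeq2 and limma-voom likewise called 0 of them. At an unadjusted p under 0.05 there was 1 of 36 (2.78%), against 5.33% of all genes. It was higher with Cdk5i, as were 2.87% of all genes, while 0 of 36 were lower, against 2.46%. The lowest edgeR adjusted p among channel genes was 0.922.

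That 1 gene was Cacna1c, with 2065, 2122 and 1915 CPM with Cdk5i, against 1813, 1745 and 1869 CPM with the scrambled peptide and 1909.9, 1922 and 1874 CPM in wild type. The Cdk5i libraries were all above the scrambled ones, and wild type lay above the scrambled range and overlapped Cdk5i. The log2 fold change of Cdk5i over scrambled peptide was 0.17 with a standard error of 0.07 (edgeR unadjusted p = 0.0365). It was 0.07 once a trend on gene length was removed from each library.

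**Figure D2:**
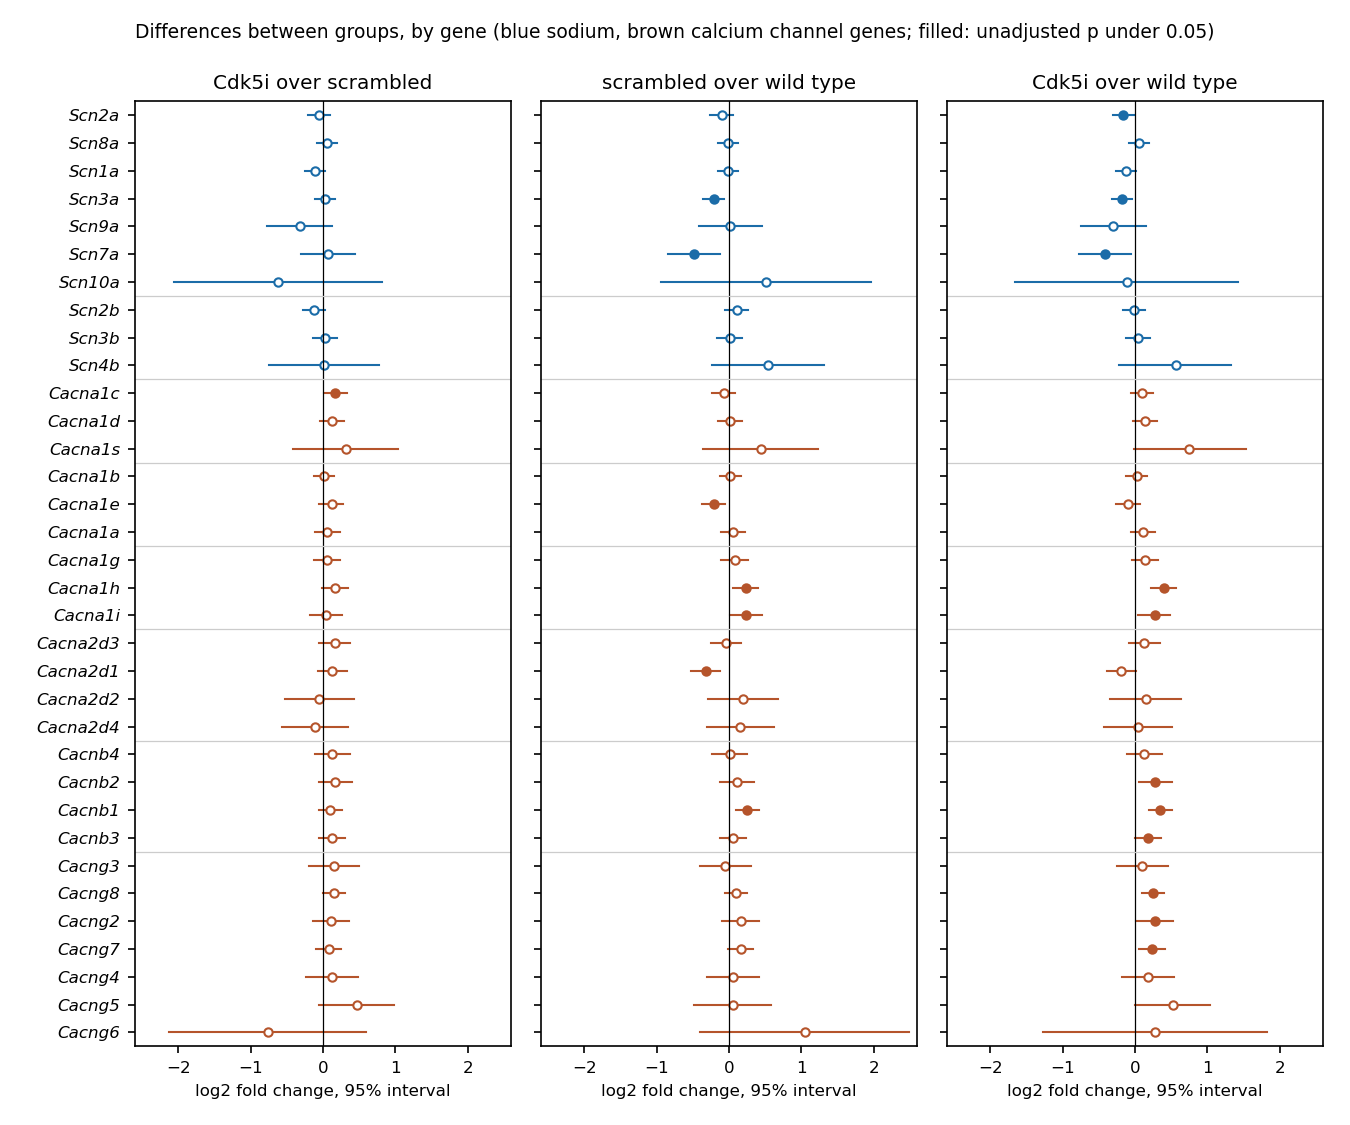
Log2 fold change of channel genes tested, with the 95% interval from the edgeR fit, for Cdk5i over scrambled peptide, scrambled peptide over wild type and Cdk5i over wild type. Blue marks sodium and brown calcium channel genes, and filled points have an unadjusted p under 0.05, which held for 1, 7 and 11 genes. Widest are the intervals of Cacng6 and Scn10a, which had few counts.

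Calcium channel genes, counted here and below together with the 7 Cacng genes tested, lay mostly above 0 and sodium channel genes did not. In Cdk5i over scrambled peptide, 21 of 24 calcium channel genes had a log2 fold change above 0 (median 0.12), against 5 of 12 sodium channel genes (median -0.08) and 47.2% of all genes tested (median -0.01). Under the alternative settings, some of which test fewer of these genes, the counts were 19 to 21 and 2 to 5. With a length trend removed from each library, the calcium channel median was 0.06 (19 of 24 above 0) and the sodium channel median -0.09 (4 of 12 above 0). All 4 calcium channel β genes lay above 0, between 0.10 and 0.17, as did 6 of 7 Cacng genes. The exception was Cacng6, which had the largest difference of the channel genes.

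Cacng6 measured 0.625, 0.305 and 0.229 CPM with Cdk5i, 0.116, 1.19 and 0.674 CPM with the scrambled peptide and 0.332, 0.374 and 0.227 CPM in wild type. These are 3 to 27 counts per library, and the groups overlapped. Cdk5i over scrambled peptide gave a log2 fold change of -0.76 ± 0.63 (SE, edgeR adjusted p = 0.966), which was -0.04 without scrambled replicate 2 and -1.27 without scrambled replicate 1. It was -1.26 without Cdk5i replicate 1 and -0.49 without Cdk5i replicate 3. Cacng5, a partner of AMPA receptors, had 21.3, 16.5 and 16.1 CPM with Cdk5i, 10.8, 12.6 and 15.5 CPM with the scrambled peptide and 9.06, 17.0 and 11.4 CPM in wild type. Its Cdk5i libraries were above the scrambled ones but overlapped those of wild type, and the log2 fold change over scrambled peptide was 0.47 ± 0.23 (SE, edgeR adjusted p = 0.933). Cacng5 was named after its values were seen.

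For the better-read genes the difference between peptides was bounded closely. Among the 29 channel genes with at least 5000 counts, the 95% interval of the log2 fold change reached a median of 0.17 to either side, with a widest of 0.48. Scn8a, for example, differed by 0.06 (interval -0.08 to 0.20), Cacna1b by 0.01 (-0.13 to 0.15) and Scn1a by -0.11 (-0.25 to 0.03). Without Cdk5i replicate 3 the count of channel genes at an unadjusted p under 0.05 was 10, and in the other fits that left out 1 library it was 1 to 4. The share of all genes with such a p was not counted in these fits, so the channel genes cannot be set against it. The number of channel genes past the adjusted threshold was 0 in each of these fits.

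Scrambled peptide was compared with wild type to ask how P301S neurons differed from wild-type neurons. Again 0 of 36 channel genes passed the edgeR test, beside 13 of 16046 genes (0.081%), and DESeq2 and limma-voom called 0 of them. At an unadjusted p under 0.05 there were 7 of 36 (19.4%), against 10.1% of all genes. Of the 7, 3 were higher with scrambled peptide, against 4.86% of all genes, and 4 were lower, against 5.2%. The 3 were Cacnb1, Cacna1h and Cacna1i, and the 4 were Scn3a, Scn7a, Cacna1e and Cacna2d1.

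Cacnb1 encodes the β subunit known from skeletal muscle that is also made in brain, and spans chr11:98001508-98023034 on the minus strand. It had 47.3, 51.7 and 43.5 CPM with Cdk5i, 41.9, 44.8 and 46.5 CPM with the scrambled peptide and 37.3, 36.6 and 38.1 CPM in wild type. All 6 libraries of P301S mice lay above the 3 wild-type libraries, and the peptide groups overlapped. Scrambled peptide exceeded wild type by 0.25 ± 0.07 on the log2 scale (SE, edgeR adjusted p = 0.311).

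Cacna2d1 showed the opposite order, with 865, 882 and 720.1 CPM with Cdk5i, 713, 726 and 809.9 CPM with the scrambled peptide and 1027, 903 and 885 CPM in wild type. Libraries of P301S mice were all below those of wild type. Its log2 fold change of scrambled peptide over wild type was -0.32 ± 0.09 (SE, edgeR adjusted p = 0.307). Without a low-count filter, which tests 32394 genes, the edgeR adjusted p was 0.00234, and over the alternatives it ranged between 0.00234 and 0.789.

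Cacna1e had 1354, 1412 and 1360.2 CPM with Cdk5i, 1256, 1258 and 1294 CPM with the scrambled peptide and 1608, 1408 and 1395 CPM in wild type. The scrambled libraries were lowest, and wild-type replicate 1 stood highest. The log2 fold change of scrambled peptide over wild type was -0.21 ± 0.08 (SE, edgeR adjusted p = 0.379). Both Cacna2d1 and Cacna1e are long genes, of 439.8 and 493.8 kb. In this comparison the median log2 fold change of all 598 tested genes over 300 kb was -0.11, against 0.03 for genes up to 30 kb. With a length trend removed from each library the log2 fold changes were -0.23 for Cacna2d1 and -0.12 for Cacna1e.

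**Figure D3:**
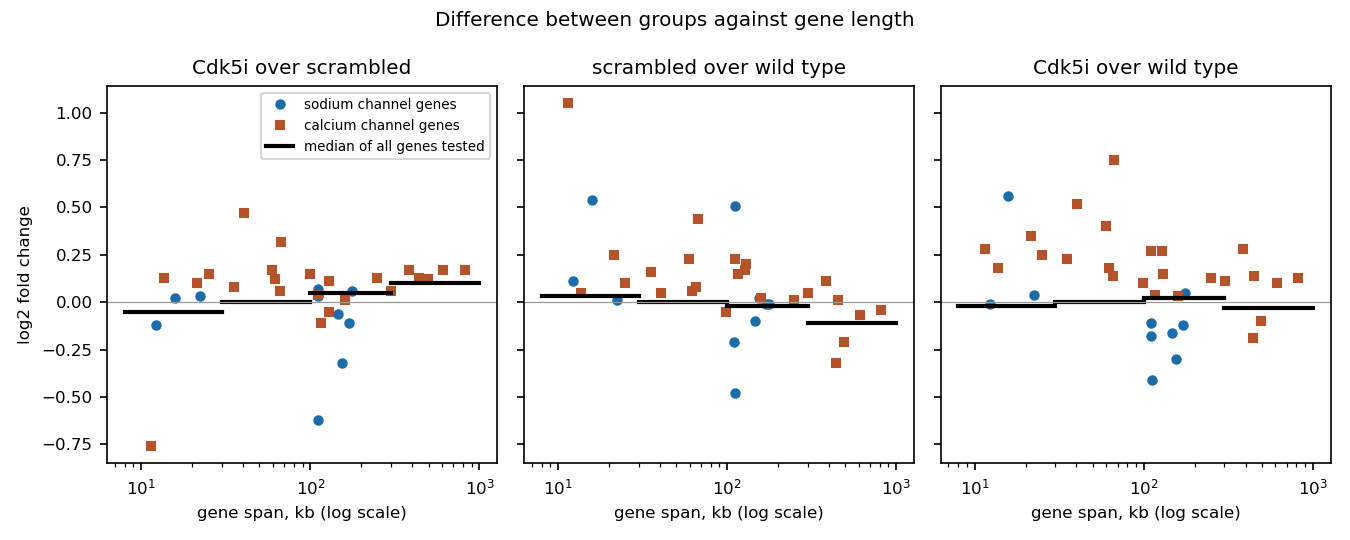
Log2 fold change of channel genes tested against the length of the gene span in kb (log axis), for the 3 comparisons, with the median of all genes tested in 4 length classes as black lines. Over 300 kb that median was 0.10 for Cdk5i over scrambled peptide, -0.11 for scrambled peptide over wild type and -0.03 for Cdk5i over wild type.

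Scn3a, the neighbour of Scn2a on chromosome 2, had 172, 156 and 166 CPM with Cdk5i, 150, 163 and 171 CPM with the scrambled peptide and 188, 192 and 181 CPM in wild type. All P301S libraries were below all wild-type libraries. For scrambled peptide over wild type the log2 fold change was -0.21 ± 0.07 (SE, edgeR adjusted p = 0.321). Scn7a had 4.06, 5.72 and 6.57 CPM with Cdk5i, 5.01, 5.53 and 5.12 CPM with the scrambled peptide and 8.20, 6.32 and 7.31 CPM in wild type. The scrambled libraries lay below wild type, whereas those with Cdk5i reached into its range. The log2 fold change of scrambled peptide over wild type was -0.48 ± 0.17 (SE, edgeR adjusted p = 0.378).

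Of the T-type genes, Cacna1h had 103, 98.2 and 95.6 CPM with Cdk5i, 89.9, 94.2 and 79.9 CPM with the scrambled peptide and 69.0, 83.4 and 73.0 CPM in wild type. The Cdk5i libraries were highest, and the scrambled group overlapped wild type. Cacna1i had 161, 140.4 and 134 CPM with Cdk5i, 127, 152 and 144 CPM with the scrambled peptide and 107, 137 and 117 CPM in wild type, with overlap between all groups. Both had a log2 fold change of 0.23 for scrambled peptide over wild type (edgeR adjusted p = 0.378 and 0.481), which for Cacna1i was 0.15 without wild-type replicate 1.

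**Figure D4:**
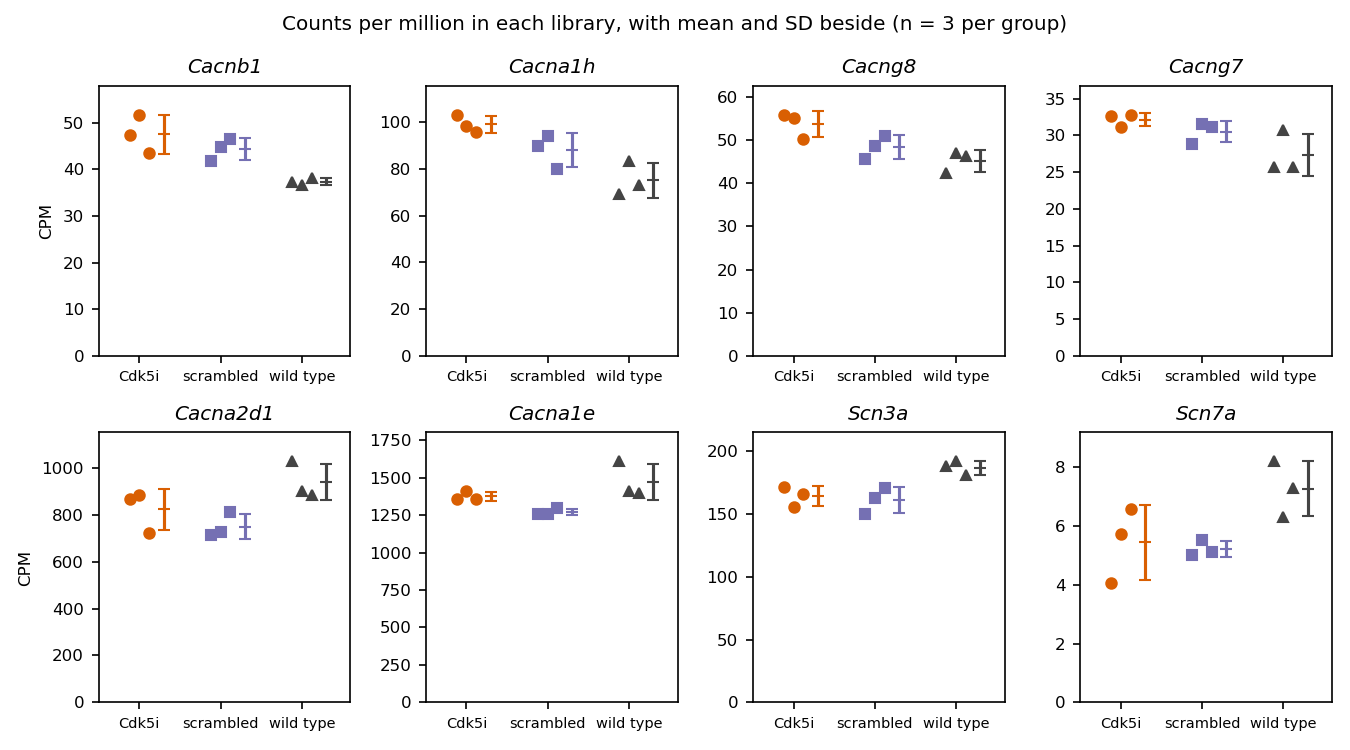
CPM of 8 channel genes in each library, with the mean and SD (n = 3 per group) beside the points, for Cdk5i, scrambled peptide and wild type. In Cacnb1 the P301S libraries lie at 41.9 to 51.7 CPM, above the wild-type range of 36.6 to 38.1, and in Scn3a at 150 to 172 CPM, below the wild-type range of 181 to 192.

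By family, 19 of 24 calcium channel genes lay above 0 in scrambled peptide over wild type (median 0.07) and 6 of 12 sodium channel genes did (median 0.00), against 51.7% of all genes tested (median 0.01). Leaving out wild-type replicate 3 gave 15 of 24 for calcium channel genes. The largest difference was that of the low gene Cacng6, 1.05 ± 0.66 (SE, edgeR adjusted p = 0.636), which was 0.33 without scrambled replicate 2. Without wild-type replicate 1 the count of channel genes at an unadjusted p under 0.05 was 3 instead of 7. The share of all genes with such a p in that fit was not counted.

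Cdk5i was also compared with wild type, which shares the wild-type libraries with the comparison above and the Cdk5i libraries with the first. With edgeR 0 of 36 channel genes passed, beside 12 of 16046 genes (0.0748%), and limma-voom called 0. DESeq2 called 2, Cacna1h and Cacnb1, beside 111 of 16046 genes that it called. At an unadjusted edgeR p under 0.05 there were 11 of 36 (30.6%), against 11.0% of all genes. The 8 that were higher with Cdk5i, Cacnb1, Cacnb2, Cacnb3, Cacna1h, Cacna1i, Cacng2, Cacng7 and Cacng8, all carry calcium channel names. The 3 that were lower, Scn2a, Scn3a and Scn7a, are sodium channel α genes of the chromosome 2 run. Over all genes, 5.73% had such a p and were higher with Cdk5i, and 5.3% were lower.

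Cacna1h and Cacnb1 had the lowest p. Cacna1h spans chr17:25374285-25433783 on the minus strand and averaged 98.8 ± 3.56 CPM with Cdk5i and 75.1 ± 7.45 CPM in wild type (SD, n = 3 each). It differed by 0.40 ± 0.08 on the log2 scale (SE, edgeR adjusted p = 0.121). DESeq2 gave it an adjusted p of 0.00782, and without wild-type replicate 1 the edgeR adjusted p was 0.413. Cacnb1 averaged 47.5 ± 4.14 CPM with Cdk5i and 37.3 ± 0.745 CPM in wild type (SD, n = 3 each), a log2 fold change of 0.35 ± 0.07 (SE, edgeR adjusted p = 0.121). Its DESeq2 adjusted p was 0.0226, and its edgeR adjusted p without wild-type replicate 1 was 0.411. For both genes the Cdk5i and wild-type libraries did not overlap.

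The other calcium channel β genes lay on the same side. Cacnb2, the β subunit known from heart, had 1014, 761 and 951 CPM with Cdk5i, 770.4, 843 and 810.4 CPM with the scrambled peptide and 693, 839 and 712 CPM in wild type. Cdk5i replicate 2 lay within the wild-type range, and the log2 fold change over wild type was 0.28 ± 0.11 (SE, edgeR adjusted p = 0.367). Cacnb3 had 25.7, 30.2 and 25.9 CPM with Cdk5i, 23.3, 26.3 and 25.4 CPM with the scrambled peptide and 24.2, 24.1 and 23.9 CPM in wild type. The wild-type libraries were nearly level and below all Cdk5i libraries, with a log2 fold change of 0.18 ± 0.08 (SE, edgeR adjusted p = 0.446) that was 0.10 without Cdk5i replicate 2. Cacnb4, the gene mutated in lethargic mice, had 954, 819 and 691 CPM with Cdk5i, 689, 727 and 837 CPM with the scrambled peptide and 718, 799 and 726 CPM in wild type. Its groups overlapped, and the log2 fold change over wild type was 0.13 ± 0.11 (SE, edgeR adjusted p = 0.696).

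Of the 7 Cacng genes tested, all lay above 0 in Cdk5i over wild type, between 0.10 and 0.52, with a median of 0.25. Cacng8, an AMPA receptor partner of the forebrain, had 55.8, 55.1 and 50.2 CPM with Cdk5i, 45.5, 48.6 and 51.0 CPM with the scrambled peptide and 42.3, 46.9 and 46.2 CPM in wild type. The Cdk5i libraries were above all wild-type libraries, and the log2 fold change was 0.25 ± 0.07 (SE, edgeR adjusted p = 0.243). Its neighbour Cacng7 had 32.6, 31.1 and 32.8 CPM with Cdk5i, 28.9, 31.6 and 31.1 CPM with the scrambled peptide and 25.7, 30.7 and 25.7 CPM in wild type. Cdk5i was again above wild type without overlap, by 0.23 ± 0.08 on the log2 scale (SE, edgeR adjusted p = 0.331).

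Cacng2 had 186, 183 and 139 CPM with Cdk5i, 151, 145 and 176 CPM with the scrambled peptide and 128, 146 and 146 CPM in wild type. Cdk5i replicate 3 lay within the wild-type range, and the log2 fold change was 0.27 ± 0.11 (SE, edgeR adjusted p = 0.416), which was 0.41 without that library. Cacng3, the highest of the family, had 264, 275 and 194 CPM with Cdk5i, 208, 186 and 265 CPM with the scrambled peptide and 243, 226 and 213 CPM in wild type. Its groups overlapped, and the log2 fold change of Cdk5i over wild type was 0.10 ± 0.16 (SE, edgeR adjusted p = 0.848).

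The sodium channel α genes lay on the other side of 0, 7 of 8 of those tested being below it with a median of -0.14. Scn2a had 479.8, 489 and 474 CPM with Cdk5i, 508, 472 and 520.2 CPM with the scrambled peptide and 581, 519.7 and 509.9 CPM in wild type. The Cdk5i libraries were close together and below wild type, and the log2 fold change of -0.16 ± 0.07 (SE) had an edgeR adjusted p of 0.436, becoming -0.10 without wild-type replicate 1. For Scn3a the log2 fold change was -0.18 ± 0.07 (SE, edgeR adjusted p = 0.349) and for Scn7a -0.41 ± 0.17 (SE, edgeR adjusted p = 0.393), which for Scn7a was -0.24 without Cdk5i replicate 1. Scn8a was the 1 gene above 0, at 0.05 (95% interval -0.09 to 0.19).

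Among pore genes of calcium channels, Cacna1i had a log2 fold change of 0.27 ± 0.10 (SE, edgeR adjusted p = 0.381) for Cdk5i over wild type. Cacna1g, the T-type gene of thalamic relay cells, had 150.1, 141 and 122 CPM with Cdk5i, 130.1, 129 and 137 CPM with the scrambled peptide and 112, 134 and 129 CPM in wild type. Its groups overlapped, with a log2 fold change over wild type of 0.14 ± 0.08 (SE, edgeR adjusted p = 0.584). The muscle gene Cacna1s had the largest difference, with 0.804, 0.572 and 0.611 CPM with Cdk5i, 0.578, 0.571 and 0.436 CPM with the scrambled peptide and 0.474, 0.374 and 0.318 CPM in wild type. These are 7 to 18 counts per library. Cdk5i lay above wild type in all libraries, by 0.75 ± 0.36 on the log2 scale (SE, edgeR adjusted p = 0.469). Cacna2d3, a long gene of 816.9 kb, had 2107, 1681 and 1632 CPM with Cdk5i, 1537, 1589 and 1704 CPM with the scrambled peptide and 1558, 1729.6 and 1677 CPM in wild type. Cdk5i replicate 1 alone stood apart, and the log2 fold change over wild type was 0.13 ± 0.10 (SE, edgeR adjusted p = 0.675).

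By family, 22 of 24 calcium channel genes (median 0.16) and 3 of 12 sodium channel genes (median -0.12) lay above 0 in Cdk5i over wild type, against 48.8% of all genes tested (median -0.01). Under the alternative settings the counts were 19 to 22 and 2 to 5. Without wild-type replicate 1 the count of channel genes at an unadjusted p under 0.05 was 5 instead of 11. Leaving out wild-type replicate 3 gave 6 and leaving out Cdk5i replicate 1 gave 7. In these fits the share of all genes with such a p was not counted. In the test of any difference among the 3 groups 0 of 36 channel genes passed with edgeR, beside 12 of 16046 genes (0.0748%). There limma-voom called 0 and DESeq2 called 1, Cacna1h, and the DESeq2 count over all genes in this test is not reported here. At an unadjusted edgeR p under 0.05 there were 9 of 36, against 9.85% of all genes, and the lowest edgeR adjusted p was 0.209. This count of channel genes was 4 without wild-type replicate 1, 6 without wild-type replicate 3 and 6 without Cdk5i replicate 1. Here too the share of all genes was not counted in the fits that left out 1 library.

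Genes whose products bind or regulate these channels were listed for comparison, and in the 3 comparisons 0 genes of any list passed the edgeR test. Over all genes tested, 47.2% lay above 0 in Cdk5i over scrambled peptide, 51.7% in scrambled peptide over wild type and 48.8% in Cdk5i over wild type. For all 598 tested genes over 300 kb, the median log2 fold changes were 0.10, -0.11 and -0.03 in the same order. The part of gene length in the values of the partner lists was not tested. Of 15 partners of sodium channels tested (from 16 listed: ankyrins, spectrins, intracellular fibroblast growth factors and the sodium leak channel complex), 14 lay above 0 in Cdk5i over scrambled peptide (median 0.11), 4 in scrambled peptide over wild type (median -0.10) and 7 in Cdk5i over wild type (median -0.03). At an unadjusted p under 0.05 there were 2, 4 and 3 of the 15, against 5.33%, 10.1% and 11.0% of all genes in these comparisons. Of 21 partners of calcium channels, 13, 9 and 11 lay above 0 in the same order of comparisons (medians 0.06, -0.03 and 0.01), and 0, 4 and 5 of the 21 had such a p, beside the same shares of all genes.

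Calcium sensors were among the partner genes with the lowest p in the comparisons with wild type. Cabp1, a calcium sensor that binds Cav1 and Cav2 channels, averaged 112 ± 9.15 CPM (SD, n = 3) with Cdk5i, 112 ± 8.44 CPM with the scrambled peptide and 84.1 ± 5.85 CPM in untreated wild type. Its log2 fold change over wild type was 0.41 for either peptide, with edgeR adjusted p values of 0.121 for Cdk5i and 0.124 for scrambled peptide. Ncs1, a calcium sensor of presynaptic terminals, averaged 74.2 ± 1.20 CPM (SD, n = 3) with Cdk5i, 70.8 ± 1.40 CPM with the scrambled peptide and 58.9 ± 5.62 CPM in untreated wild type. Cdk5i exceeded wild type by 0.33 on the log2 scale (edgeR adjusted p = 0.121).

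For the partners of the Cacng genes, AMPA receptor subunits and their other auxiliary subunits, 11 of 12 lay above 0 in Cdk5i over scrambled peptide (median 0.13), 4 in scrambled peptide over wild type (median -0.14) and 8 in Cdk5i over wild type (median 0.10). An unadjusted edgeR p under 0.05 was found for 4, 3 and 2 of the 12, against 5.33%, 10.1% and 11.0% of all genes. Cnih3 averaged 103 ± 10.9 CPM (SD, n = 3) in Cdk5i libraries and 80.1 ± 8.38 CPM in scrambled ones, a difference of 0.36 on the log2 scale (edgeR adjusted p = 0.636). Shisa9 and Gsg1l, which also encode auxiliary subunits, differed by 0.30 and 0.27 on the log2 scale, Cdk5i over scrambled peptide (edgeR adjusted p = 0.667 and 0.744). Gria4, an AMPA receptor subunit, averaged 816 ± 43.6 CPM (SD, n = 3) in scrambled libraries and 1008 ± 54.7 CPM in wild-type ones, a difference of -0.31 on the log2 scale (edgeR adjusted p = 0.249). Of 25 genes of calcium stores, pumps and calcium-dependent kinases, 17, 15 and 16 lay above 0 in Cdk5i over scrambled peptide, scrambled peptide over wild type and Cdk5i over wild type, with medians of 0.07, 0.01 and 0.07. An unadjusted edgeR p under 0.05 was found for 2, 4 and 5 of the 25, beside the same shares of all genes.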

How the data were processed

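The authors deposited unnormalised counts of read pairs, which featureCounts assigned to whole genes, introns included, with reversed strand and Ensembl release 102, per the file headers. STAR 2.7.9a, DESeq2 1.36.0, Subread 2.0.0 and the build GRCm38 are listed in the submitters' processing notes, with no role given. RNA came from sorted nuclei and was made into stranded total RNA libraries, read for 40 bases on each end, per the labels. Of 55401 genes, 55141 (99.5%) had a symbol in the gene name table used.

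Tests were run in edgeR 4.0.16 under R 4.3.3. Genes kept by filterByExpr (minimum count 10) numbered 16046. TMM factors, 3 group means over all 9 libraries and robust quasi-likelihood dispersion left 6 residual degrees of freedom. Each of 3 comparisons and a 3-group test was adjusted by Benjamini-Hochberg over all genes tested, with a threshold of 0.05. Standard errors and 95% intervals come from the same fit. CPM per kb divides by the gene span. Within each group the libraries differed beyond counting noise (chi-square per gene between 8.96 and 27.0), so there was no sign of a library deposited in duplicate. This does not show that they came from different animals.

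The channel genes and partner lists were chosen with earlier results of these data known. Values of every library are given for the highest gene per kb of each subfamily, genes with an unadjusted p under 0.05, and the largest difference per comparison. Partner genes named are the 3 with the lowest p per comparison. Cacng5, Scn2b, Scn4b and Rgs9 were added after their values were seen, and some genes of these lists, although counted in the totals, are not reported here. Alternatives were DESeq2 1.42.0, limma-voom (limma 3.58.1), DESeq2 size factors, a length trend, no filter, a mean of at least 50 counts, the replicate number as a block, a fit of the compared groups alone, and leaving out each library. Python 3.11.15 and pandas 2.3.3 were used for the tables. Reads without molecular identifiers are not independent molecules.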

Additional observations from a re-analysis of the deposited data

How the results depend on the processing

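The number of channel genes past the threshold was 0 in all 4 tests and stayed at 0 with each library left out in turn (lowest 0, highest 0) and under limma-voom, DESeq2 size factors, the length trend and a mean of at least 50 counts. DESeq2 called 2 channel genes in Cdk5i against wild type, beside 111 of 16046 genes, and 1 in the 3-group test. Without a low-count filter edgeR called 1 in scrambled peptide against wild type, 6 in Cdk5i against wild type and 7 in the 3-group test, and the cause was not tested. Log2 fold changes were compared gene by gene for channel genes with an unadjusted p under 0.05 and for the largest difference of each comparison. Of these, 0 turned sign. Those of the other named genes were refitted but not compared gene by gene. Counts over all genes moved more: edgeR's 13 for scrambled peptide against wild type ranged between 2 and 318, its 2 for Cdk5i against scrambled peptide between 2 and 159, its 12 for Cdk5i against wild type between 1 and 408, and its 12 in the 3-group test between 3 and 602, the highest each time without a filter.

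Same-numbered libraries showed no shared deviation, with correlations of -0.31 to 0.17, against -0.15 to 0.28 for libraries of different number. A low correlation cannot exclude that libraries of the same number were handled together. With the replicate number as a block, 0 channel genes passed in each test, and over all genes 2 passed in scrambled peptide against wild type. The 3-group test with only the groups compared was not run, since it needs all groups. Genes at a few counts per library, such as Cacng6, Cacna1s and Scn10a, allow only wide intervals.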
